A study of Mus musculus with 5 samples.

Results

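The cornified envelope is the crosslinked protein shell that replaces the plasma membrane of a keratinocyte as it dies. Early in differentiation, scaffold proteins such as envoplakin, periplakin and involucrin line the membrane, and transglutaminases crosslink them to small proline-rich (Sprr) proteins. Later, granular cells add loricrin, late cornified envelope (Lce) proteins, cornifelin and the filaggrin-type proteins, many of them encoded side by side in the epidermal differentiation complex of chromosome 3. A normal mammary duct does not cornify, but mammary lesions can undergo squamous change.

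The genes described here are every symbol that starts with Sprr or Lce and a digit, and 24 further named genes of cornification and squamous differentiation. In all 59 of 24347 symbols matched, since Flg was not analysed here, and 16 had a level of 1 or more in at least 2 libraries, the limit for testing. Levels are FPKM, which scales fragments by transcript length and library size so that genes of different length can be compared approximately. Length effects can remain, so ranks of genes with short transcripts are approximate too. Textbook roles put 26 symbols in an early group (scaffolds, their crosslinking enzymes Tgm1 and Tgm5, suprabasal secreted proteins and all Sprr genes) and 32 in a terminal group (granular and cornified layer proteins and all Lce genes), and left Tgm2 in neither.

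All cells came from mammary precancerous lesions of MMTV-Wnt-1 transgenic mice, on a mixture of FVB, SJL and C57BL/6, in which the viral MMTV promoter drives Wnt-1 in the mammary epithelium. The groups were keratin 6a positive cells (Krt6a+, 2 libraries numbered 2 and 3), labelled as precancerous stem cells, and cells marked by whey acidic protein, a milk protein (WAP+, 3 libraries numbered 1 to 3), and the study asked how their expression differed. Each library was amplified from a small pool of cells sorted with an antibody to TVA. Not stated in the labels are the way TVA marked either population, the age of the mice at sorting, and whether libraries came from separate mice, so p-values measure only the spread between these libraries, which may be technical. In sorted pools, fewer cells that express a gene and less RNA per cell cannot be told apart.

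Library facts bear on every value below. The libraries held 8112 to 8900 symbols at FPKM 1 or more. Krt6a, the keratin that names the first population, was at FPKM 1380 and 1133 in the Krt6a+ libraries and at most 168 in the WAP+ libraries, and Wap was listed at 0 in both Krt6a+ libraries and at 13.9 to 126 in the WAP+ libraries. The luminal keratin Krt8 separated the Krt6a+ libraries from each other, at FPKM 66.2 in library 2 and 719 in library 3, against 1664 to 1917 in the WAP+ libraries. An exact 0 can be a failed estimate, because the housekeeping gene Gapdh was listed at 0 in 3 libraries and Eno1 in 5. Of 9682 genes tested, 25 passed upward and 42 downward in Krt6a+ libraries (limma, adjusted p under 0.05; 0.692% in either direction), or 39 and 39 with quantile normalization and 54 and 31 with the trend with transcript length removed.

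The promoters of 5 members are shown. Sprr1a, the most abundant member, stands beside its paralog Sprr1b, seen in 1 library and listed at 0 in the others. Sbsn, Dmkn and Krtdap are 3 neighbours on chromosome 7. Each sequence is the 160 bases just before the transcript start, 5′ to 3′ on the strand of the gene, from RefSeq on GRCm38.p6 (mm10). Capitals mark the AP-1 motif TGANTCA and the TATA box motif TATAAA, each searched on both strands.
Sprr1a promoter, chr3:92485882-92486041, minus strand: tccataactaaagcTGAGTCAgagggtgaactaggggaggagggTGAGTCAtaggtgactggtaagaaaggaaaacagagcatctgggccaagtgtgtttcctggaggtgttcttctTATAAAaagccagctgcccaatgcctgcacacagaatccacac
Sprr1b promoter, chr3:92438780-92438939, minus strand: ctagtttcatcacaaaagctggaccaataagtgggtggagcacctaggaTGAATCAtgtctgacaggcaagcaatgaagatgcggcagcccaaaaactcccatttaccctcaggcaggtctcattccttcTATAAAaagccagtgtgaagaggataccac
Sbsn promoter, chr7:30751311-30751470, plus strand: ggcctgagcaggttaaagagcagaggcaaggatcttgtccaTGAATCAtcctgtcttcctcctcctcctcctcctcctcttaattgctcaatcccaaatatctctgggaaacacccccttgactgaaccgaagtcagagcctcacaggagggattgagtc
Dmkn promoter of the short transcript, chr7:30776245-30776404, plus strand: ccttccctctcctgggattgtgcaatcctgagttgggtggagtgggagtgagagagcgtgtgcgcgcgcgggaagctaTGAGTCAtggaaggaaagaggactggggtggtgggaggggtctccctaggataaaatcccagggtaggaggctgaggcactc
Krtdap promoter, chr7:30787745-30787904, plus strand: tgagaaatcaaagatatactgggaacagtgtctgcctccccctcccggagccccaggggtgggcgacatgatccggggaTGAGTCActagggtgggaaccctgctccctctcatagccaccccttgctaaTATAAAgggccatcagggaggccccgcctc

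RefSeq promoters were found for 52 of the 59 members, and for 12 of the 16 tested (none for Calml3, Evpl, Ppl and Tgm2). In the 250 bases before the start, TGANTCA was present for 6 of these 12 tested symbols: Sprr1a, Sbsn, Dmkn, Krtdap, Lor and Scel. It stood in 8 of their 16 listed promoters, in 13 of 42 promoters of other members (31.0%, with Sprr2a1 and Flg counted), in 4.69% of the promoters of all tested symbols and in 6.75% of all 32851 promoters. Sprr1a holds 2 copies and its paralog Sprr1b holds 1, which starts 111 bases before the start. The Sbsn, Dmkn short-transcript and Krtdap copies lie 119, 82 and 81 bases before the start. Every printed promoter thus holds the motif, while those of Cnfn, Asprv1, Cdsn, Tchh, Tgm1 and Sfn, which are not printed, held none. No Lce promoter, 0 of 20, held the motif. TATAAA was in 10 of 14 Sprr promoters (71.4%), counting Sprr2a1, against 12.4% of all promoters. The Grainyhead motif AACNGGTT was in 1 of 16 promoters of tested members, that of Sfn, and in 1.79% of all, and the KLF motif GGGNGGG in 8 of 16 and in 44.8% of all, or 63.6% of those of all tested symbols. A match is only a run of letters, and promoters with and without it occur among members at 0.

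Most squamous genes that were detected lay higher in Krt6a+ cells, but few passed the test. Both Krt6a+ libraries lay above all WAP+ libraries for 12 of the 16 tested members, and this held for 17.4% of all tested genes. Only Calml3 was higher past the threshold over all genes (25 of 9682, 0.258%, were), and only Tgm2 was lower (0.434% were). At an unadjusted p under 0.05, 12 members were higher and 1 lower, against 7.66% and 9.45% of all tested genes. The log2 difference was above 0 for 14 of the 16 and for 49.8% of all tested genes. The median log2 difference, Krt6a+ minus WAP+, was 2.13 over the 16 members and -0.01 over all tested genes. Of the 16, Calml3 and Cdsn reached the limit for testing through the Krt6a+ libraries alone and Tgm2 through the WAP+ libraries alone, so these 3 had to differ.

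**Figure D1:**
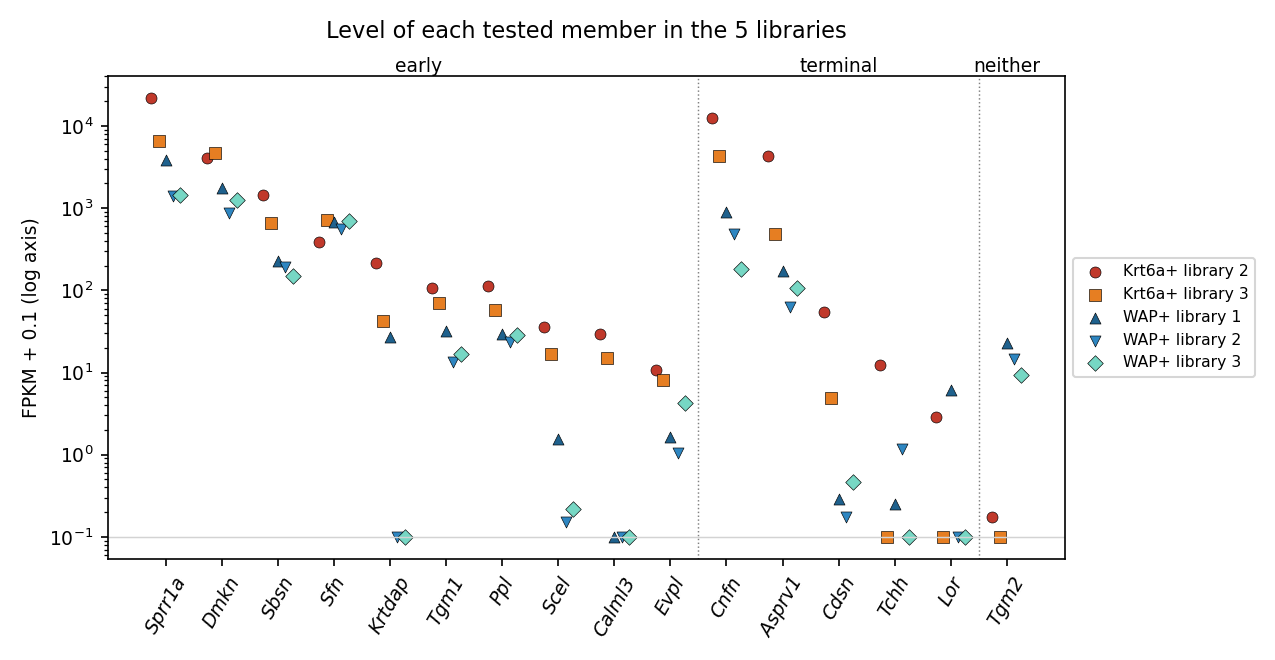
Deposited FPKM plus 0.1 on a log axis for the 16 tested members, by stage group, with 1 point per library (Krt6a+ libraries in red and orange, WAP+ libraries in blue and green; points on the grey line are listed at 0). Both Krt6a+ points lie above all WAP+ points for 12 members and below them for Tgm2, and the populations overlap for Sfn, Tchh and Lor.

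Among the early envelope scaffolds, Ppl, Evpl and Scel were higher in each Krt6a+ library than in any WAP+ library, while Ivl was listed at 0 in all 5 libraries. Ppl encodes periplakin, which ties the envelope to keratin filaments, and lies on chromosome 16 from 5086291 to 5132481. It was at FPKM 113 and 56.7 in Krt6a+ libraries 2 and 3 and at 29.5, 23.7 and 28.6 in WAP+ libraries 1, 2 and 3. The Ppl values did not overlap. Its partner Evpl, envoplakin, had 10.7 and 8.09 against 1.53, 0.96 and 4.12. Periplakin was thus the more abundant plakin in every library. The log2 differences were 1.41 ± 0.47 (SE) for Ppl and 1.71 ± 0.72 (SE) for Evpl, and neither passed (limma, adjusted p = 0.186 and 0.277).

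Scel encodes sciellin, an envelope precursor of stratified epithelia, on chromosome 14 from 103513341 to 103613346. Scel was at FPKM 35.2 and 16.9 in the Krt6a+ libraries against 1.47, 0.05 and 0.12, without overlap. The last 2 values rested on about 1 and 2 fragments, read from the width of the deposited 95% intervals. The Krt6a+ values rested on about 578 and 223 fragments. Its log2 difference of 4.12 ± 0.73 (SE) was just outside the threshold (limma, adjusted p = 0.0533). The pseudocount sets its size, which was 5.97 at 0.1 and 2.39 at 5.

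Sprr1a, a proline-rich crosslinking substrate at chromosome 3 from 92483954 to 92485881, was the most abundant member in each library. Its FPKM was 21990 and 6512 in Krt6a+ libraries 2 and 3, against 3859, 1395 and 1458 in WAP+ libraries 1, 2 and 3, without overlap. It was the highest of all symbols in Krt6a+ library 2, and ranked 7 in Krt6a+ library 3 and 16, 59 and 39 in WAP+ libraries 1, 2 and 3. The deposited 95% intervals ran from 21844 to 22135 in Krt6a+ library 2, from 6426 to 6598 in library 3, and from 3790 to 3927 in WAP+ library 1, the highest WAP+ library. Scaled means of 14107 ± 11787 (SD, n = 2) stood against 2196 ± 1032 (SD, n = 3). With this spread the log2 difference, 2.47 ± 0.63 (SE), did not pass (limma, adjusted p = 0.110). Without Krt6a+ library 3 it was 3.46 (adjusted p = 0.0277) and without library 2 it was 1.49 (adjusted p = 0.252), and each refit took the spread from the WAP+ libraries only. The first of these used fewer tested genes, and with the tested genes held fixed its adjusted p was 0.159.

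None of the other 14 Sprr symbols reached the limit for testing. Sprr1b, the closest relative of Sprr1a in the list, had FPKM 7.56 in Krt6a+ library 3, from about 26 fragments, and was listed at 0 elsewhere. Sprr2a3 had 37.6 in Krt6a+ library 2, from about 192 fragments, and was listed at 0 elsewhere. The remaining 12, among them Sprr3, Sprr4 and 10 Sprr2 symbols, were listed at 0 in every library. Sprr2 genes are near-identical copies, and Sprr2a2 was placed at 2 loci, so how shared reads were assigned among them is uncertain and was not tested.

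The crosslinking enzymes differed in direction. Tgm1 encodes the membrane-bound transglutaminase of keratinocytes, on chromosome 14 from 55700009 to 55713492. Tgm1 was at FPKM 106 and 69.2 against 31.4, 13.4 and 16.5, so the populations did not overlap. Its log2 difference was 1.99 ± 0.47 (SE) and did not pass (limma, adjusted p = 0.0982). The transcript of 2753 bases held 82.2% to 100% of the Tgm1 level in each library, and the other 2 transcripts were seen in 1 Krt6a+ library each. Tgm5, another keratinocyte transglutaminase, was at 4.60 in Krt6a+ library 2 alone, and Tgm3, that of hair and the granular layer, was listed at 0 throughout.

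Tgm2, the widely expressed tissue transglutaminase, went the other way. Tgm2, on chromosome 2 from 158116405 to 158146392, was at FPKM 0.07 and 0 against 22.6, 14.4 and 9.22. The 0.07 rested on about 2 fragments and the WAP+ values on about 451, 341 and 173. Scaled means were 0.04 ± 0.05 (SD, n = 2) against 15.4 ± 4.67 (SD, n = 3), and the log2 difference was -3.94 ± 0.63 (SE; limma, adjusted p = 0.0453), 15.4-fold on the log2(FPKM + 1) scale. The pseudocount sets this size, and the difference was -6.83 at 0.1 and -1.99 at 5, where it did not pass (adjusted p = 0.0556 and 0.0649). Nor did it pass with no filter (0.164), on FPKM as deposited (0.0522), without the mean-variance trend (0.0544) or with the replicate block (0.108). It no longer passed when Krt6a+ library 2 (adjusted p = 0.0564) or WAP+ library 1, 2 or 3 (0.138, 0.202 and 0.167) was left out, or Krt6a+ library 3 with the tested genes held fixed (0.150), and the adjusted p over all its alternatives ran from 0.0376 to 0.209. All WAP+ libraries lay above both Krt6a+ libraries, as for 17.4% of all tested genes.

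Calml3, a calmodulin-like protein of epithelia, was the member called higher. Calml3, on chromosome 13 from 3802893 to 3804318, was at FPKM 29.4 and 14.9 in the Krt6a+ libraries, with deposited 95% intervals of 25.4 to 33.4 and 11.7 to 18.1. It was listed at 0 in all 3 WAP+ libraries, so no fold is given. The limma log2 difference was 4.39 ± 0.67 (SE, adjusted p = 0.0448), a size set by the pseudocount, with 7.65 at a pseudocount of 0.1 (adjusted p = 0.0724) and 2.34 at 5 (adjusted p = 0.0492). It did not pass with no filter (adjusted p = 0.178), without the mean-variance trend (0.0524) or with the replicate block (0.0933). It no longer passed with WAP+ library 1, 2 or 3 left out (adjusted p = 0.138, 0.202 and 0.174), and over all its alternatives the adjusted p ran from 0.0363 to 0.204. Without Krt6a+ library 2 or 3 it fell below the limit for testing, and with the tested genes held fixed the adjusted p was 0.184 and 0.149.

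Sbsn, Dmkn and Krtdap, suprabasal secreted proteins encoded next to each other on chromosome 7 between 30751471 and 30791083, were each higher in both Krt6a+ libraries than in every WAP+ library. Dmkn, dermokine, had FPKM 4075 and 4737 against 1754, 866 and 1264. It was the most even of the 3 between the Krt6a+ libraries, with scaled means of 4179 ± 28.2 (SD, n = 2) against 1313 ± 315 (SD, n = 3). Its log2 difference was 1.70 ± 0.36 (SE; limma, adjusted p = 0.0758). In all 5 libraries the whole Dmkn level lay in the short transcript of 661 bases, which starts at 30776405 inside the gene. The 3 long transcripts, of 1977 to 2070 bases, were listed at 0 throughout.

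Sbsn, suprabasin, was at FPKM 1458 and 664 against 228, 192 and 148, and 2.27 ± 0.45 (SE) higher on the log2 scale (limma, adjusted p = 0.0614). The short Sbsn transcript of 732 bases held 87.3% to 96.6% of it in each library. Krtdap, keratinocyte differentiation-associated protein, had 214 and 42.4 against 26.8, 0 and 0. Its log2 difference of 4.99 ± 1.44 (SE) did not pass (limma, adjusted p = 0.139), but was 6.52 and passed with the replicate block (0.0358). Its WAP+ value rested on about 28 fragments in library 1, the only WAP+ library where it was seen.

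Sfn, the cell cycle inhibitor stratifin (14-3-3 sigma) that rises as keratinocytes leave the basal layer, did not follow the other early genes. Sfn was at FPKM 390 and 724 against 670, 550 and 700, so that the WAP+ values lay between the Krt6a+ values. The log2 difference was -0.38 (95% interval -1.23 to 0.47; limma, adjusted p = 0.649) and changed sign to 0.26 with quantile normalization (adjusted p = 0.813). Thus 9 of the 10 tested early members lay above all WAP+ libraries in both Krt6a+ libraries, against 17.4% of all tested genes. Sfn was the exception. Among the 9, Calml3 was tested through the Krt6a+ libraries alone and so had to differ. The median log2 difference of the 10 was 2.13.

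**Figure D2:**
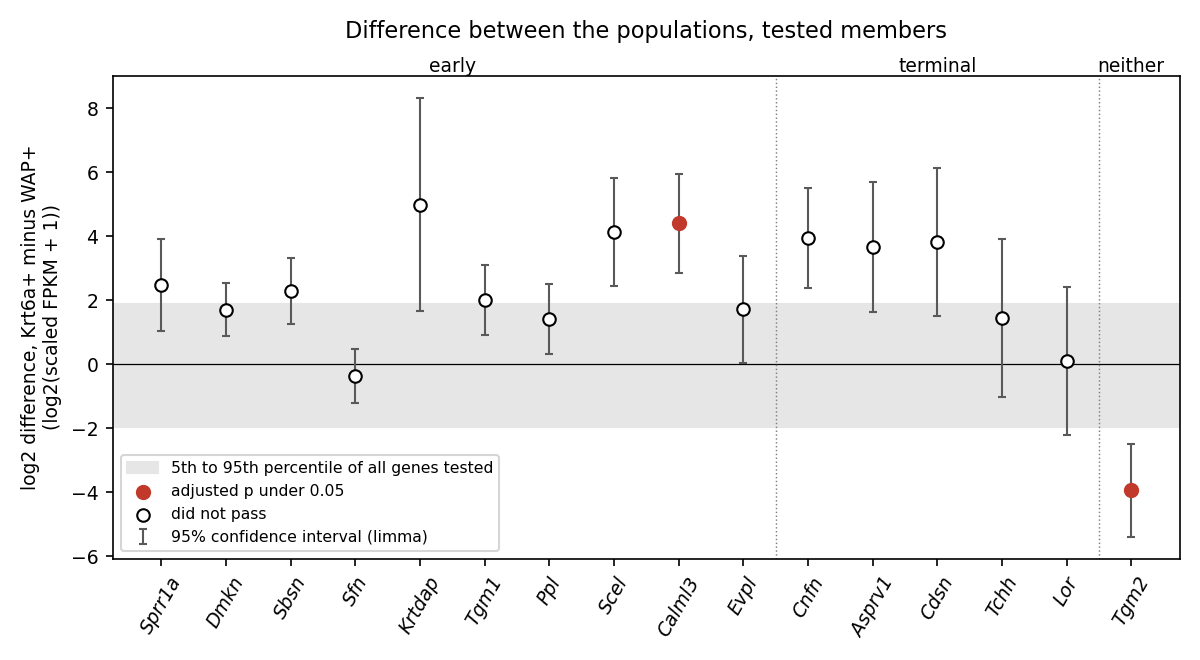
Log2 difference, Krt6a+ minus WAP+, on the log2(scaled FPKM + 1) scale for each tested member, with 95% confidence intervals from limma, and the 5th to 95th percentile of all 9682 tested genes in grey. Calml3 (4.39) and Tgm2 (-3.94) passed an adjusted p of 0.05 (filled), and intervals of Sfn, Tchh and Lor include 0.

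The terminal genes split into a few at high level and many at 0. Cnfn encodes cornifelin, a small envelope protein of the granular layer, on chromosome 7 from 25367616 to 25369724. Cnfn was at FPKM 12322 and 4260 against 897, 483 and 184, without overlap. It ranked 3 and 9 among all symbols in Krt6a+ libraries 2 and 3 and 80, 165 and 330 in WAP+ libraries 1, 2 and 3. Scaled means of 8176 ± 6222 (SD, n = 2) stood against 510 ± 289 (SD, n = 3). The log2 difference of 3.95 ± 0.68 (SE) was just outside the threshold (limma, adjusted p = 0.0520). The transcript of 530 bases held 76.8% to 100% of the Cnfn level in each library. Cnfn passed under 8 of 21 alternatives, among them quantile normalization (adjusted p = 0.0386) and without Krt6a+ library 3 (0.0221, or 0.157 with the tested genes held fixed).

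Asprv1, the retroviral-like aspartic protease that processes profilaggrin, lies on chromosome 6 from 86628174 to 86629704. Asprv1 was at FPKM 4341 and 477 against 170, 63.3 and 106, without overlap. It ranked 8 among all symbols in Krt6a+ library 2 and 116 in library 3, and 427, 868 and 508 in WAP+ libraries 1, 2 and 3. Krt6a+ library 2 was 9.10 times as high as library 3. The log2 difference was 3.65 ± 0.88 (SE; limma, adjusted p = 0.0996), and 5.35 without Krt6a+ library 3 (adjusted p = 0.00493, or 0.149 with the tested genes held fixed) or 1.96 without library 2 (0.140).

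Cdsn, corneodesmosin, the adhesive protein of cornified cell junctions, was at FPKM 53.6 and 4.74 against 0.19, 0.07 and 0.37, without overlap. The WAP+ values rested on about 2, 1 and 4 fragments. Cdsn, on chromosome 17 from 35552128 to 35557180, was 3.81 ± 1.00 (SE) higher on the log2 scale and did not pass (limma, adjusted p = 0.118), with 5.71 at a pseudocount of 0.1 and 2.17 at 5.

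Lor and Tchh overlapped between the populations. Lor, loricrin, the main protein of the mature epidermal envelope, had FPKM 2.79 in Krt6a+ library 2 and 6.06 in WAP+ library 1, from about 9 and 19 fragments, and was listed at 0 in the other 3 libraries. Its log2 difference was 0.09 (95% interval -2.22 to 2.40; limma, adjusted p = 0.982), which turned negative without WAP+ library 2 or 3 (-0.38 and -0.37). Tchh, trichohyalin of the hair sheath and filiform papillae, had 12.3 in Krt6a+ library 2, 0.15 and 1.06 in WAP+ libraries 1 and 2, and 0 in the others (limma, log2 1.45 ± 1.07 SE, adjusted p = 0.527). With the tested genes held fixed and Krt6a+ library 2 left out, the Tchh difference was -0.43. Of the 5 tested terminal members, 3 (Cnfn, Asprv1 and Cdsn) lay higher without overlap, against 17.4% of all tested genes. Cdsn was tested through the Krt6a+ libraries alone. The median log2 difference of the 5 was 3.65, and 0 passed (limma, 3 higher at an unadjusted p under 0.05, against 7.66% of all).

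No Lce gene reached the limit for testing. Of 21 Lce symbols 19 were listed at 0 in all 5 libraries, Lce1a1 had FPKM 3.32 in Krt6a+ library 2 from about 9 fragments, and Lce6a stayed at or below 0.33. Crnn, Hrnr, Rptn and Casp14, proteins of the granular and cornified layers, were also listed at 0 throughout, and Flg2 had 0.25 in WAP+ library 3. In all, 37 of 59 members (24 terminal and 13 early) were listed at 0 in every library, each with an upper bound of 0 as well, as were 42.0% of all symbols by FPKM.

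Most members at 0 lay in the complex on chromosome 3. Of the 43 members on chromosome 3, 35 were listed at 0 in all libraries and 3 were tested, Sprr1a, Lor and Tchh. Of the 16 members elsewhere, 13 were tested. The neighbours of Sprr1a, Sprr3 on 1 side and Sprr4 and Ivl on the other, were listed at 0 in every library. Among other genes of this complex, Prr9 (FPKM 9.48 and 6.40 against 0, 0 and 2.13) and Pglyrp3, a peptidoglycan recognition protein (54.5 and 10.4 against 8.86, 0 and 0), were tested and did not pass (limma, adjusted p = 0.168 and 0.180), and 6 of 8 were below the limit.

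**Figure D3:**
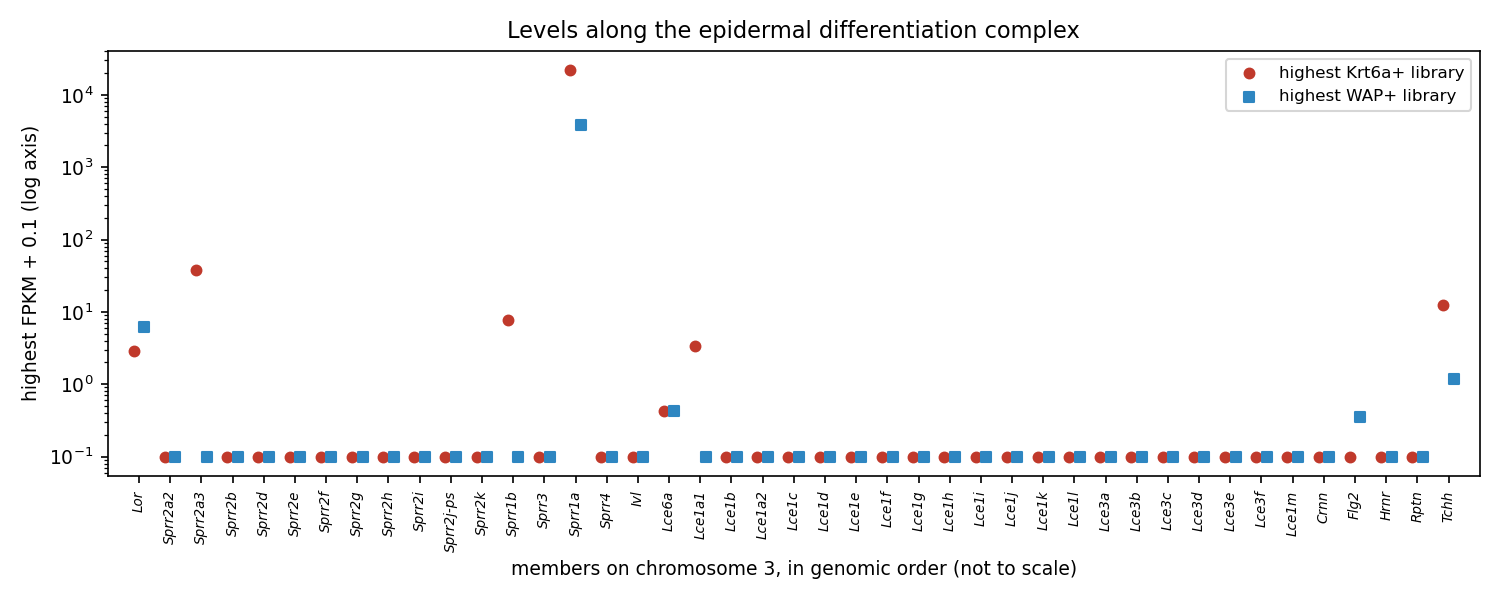
Highest FPKM plus 0.1 (log axis) in the 2 Krt6a+ libraries (circles) and the 3 WAP+ libraries (squares) for the 43 members on chromosome 3, in genomic order and not to scale. Sprr1a stands at 21990 and 3859 between neighbours listed at 0.

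The Krt6a+ libraries were far from equal in these genes. Members made up 11.7% of the summed FPKM of Krt6a+ library 2 and 4.22% of that of library 3, against 1.47%, 0.697% and 0.935% in WAP+ libraries 1, 2 and 3. Sprr1a alone was 48.7% and 37.0% of the member total in Krt6a+ libraries 2 and 3 and 37.2% to 50.1% in WAP+ libraries. The summed FPKM of terminal members was 0.588 and 0.369 times that of early members in Krt6a+ libraries 2 and 3, and 0.163, 0.180 and 0.0803 times in WAP+ libraries 1, 2 and 3, so the ranges of the populations did not overlap. Most of the terminal sum was Cnfn, at 63.2% to 89.8% in each library.

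Library 2 was higher than library 3 for 14 of the 16 tested members, against 4672 of all 9682 tested genes. The median log2 difference between these 2 libraries was 3.39 for the 5 terminal members, 1.15 for the 10 early members and 0.00 for all tested genes. Luminal markers (Krt8, Krt18, Epcam, Cldn3 and Elf5) summed to FPKM 1293 in library 2 and 3508 in library 3, and to 6752 to 7367 in WAP+ libraries. Basal markers (Krt5, Krt14, Trp63 and Krt17) summed to 2930 and 3342 in Krt6a+ libraries and to 201 to 1290 in WAP+ libraries. Krt17 overlapped, at 207 and 692 against 331, 55.0 and 205. It is also counted among the suprabasal keratins below, and Trp63 among the regulators of cornification. The part of these lineage levels in the member differences was not tested.

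**Figure D4:**
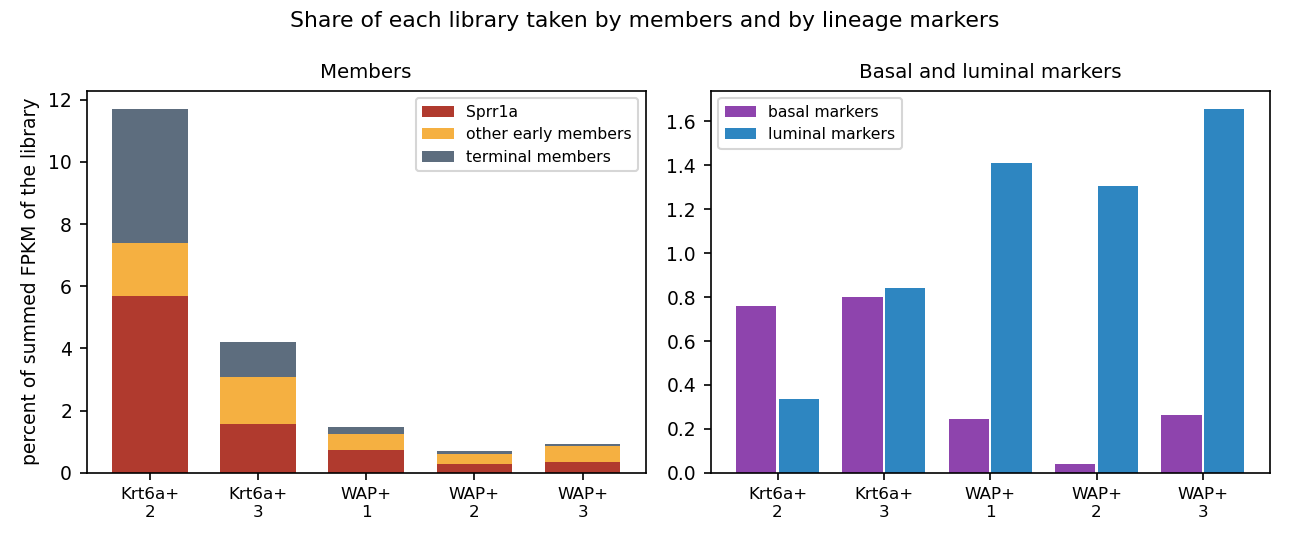
Left, percent of the summed FPKM of each library taken by Sprr1a, the other early members and the terminal members; right, the same for the summed basal and luminal markers. Members take 11.7% and 4.22% in Krt6a+ libraries 2 and 3 and at most 1.47% in WAP+ libraries, while the luminal sum is lowest in Krt6a+ library 2.

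Markers of skin were listed at 0 or at low levels, with the limit on exact zeros given above. Of 6 markers of epidermal keratinocytes, Krt1, Krt2 and Krt77 were listed at 0 in all libraries, and the list, which includes Lor and Flg2, summed to FPKM 5.14 and 5.08 against 14.2, 0 and 0.40. Of 6 hair follicle markers 3 (Krt25, Krt27 and Krt28) were listed at 0 throughout, and the list summed to 14.0 and 29.7 in Krt6a+ and 0.21 to 1.24 in WAP+ libraries, mostly Tchh in Krt6a+ library 2 and Krt73 (29.6) in library 3. Fibroblast markers summed to 57.5 and 210 in Krt6a+ and at most 84.2 in WAP+ libraries. This sum was mostly Dcn in every library, at 49.4 and 210 in Krt6a+ libraries 2 and 3. Col1a1, Col1a2, Col3a1 and Pdgfra were listed at 0 in Krt6a+ library 3. Col1a2, Col3a1 and Lum were highest in WAP+ library 3, while Col1a1 was highest in Krt6a+ library 2, at 2.44. Leukocyte markers summed to 6.49 to 26.4 in any library, and all 4 adipocyte markers were at 0. Endothelial markers summed to 0.09 and 0.74 in Krt6a+ and 0.04 to 23.2 in WAP+ libraries, and myoepithelial markers to 1.63 and 1.18 against 12.1 to 28.8.

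Among the transcription and signalling regulators of cornification no gene passed. All 23 in the list were tested, 0 passed, and at an unadjusted p under 0.05 (limma) 11 were higher and 1 lower, against 7.66% and 9.45% of all tested genes. For 16 both Krt6a+ libraries lay above all WAP+ libraries and for 1, Gata3, below, against 17.4% of all tested genes each way, and the median log2 difference was 1.33. These counts include Maf, tested through the Krt6a+ libraries alone and so bound to differ, whose value is that median. Grhl3, the Grainyhead factor that activates Tgm1 in epidermis, was at FPKM 37.8 and 119 against 8.03, 2.13 and 1.73 (limma, log2 3.91 ± 0.68 SE, adjusted p = 0.0520). Hopx, a homeodomain protein of differentiating keratinocytes, had 19.2 and 130 against 0.85, 1.63 and 1.16 (limma, log2 4.44 ± 0.81 SE, adjusted p = 0.0547). Prdm1, the repressor Blimp1 of the granular layer, had 27.5 and 46.7 against 4.89, 1.08 and 1.29 (limma, log2 3.52 ± 0.64 SE, adjusted p = 0.0547). These 3 were higher in Krt6a+ library 3, where Cnfn, Asprv1, Cdsn and Sprr1a were lower than in library 2. The rest of the list was mixed. Klf4, Elf3 and Ehf were among those higher in library 2, and Klf5, Ovol1 and Trp63 among those higher in library 3. Whether regulator and member levels are linked was not tested.

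The other lists of the pathway were mixed. Of 19 proteases and inhibitors of cornification 13 were tested and 0 passed (limma, 4 higher and 1 lower at an unadjusted p under 0.05, against 7.66% and 9.45% of all tested genes, median log2 0.95). Serpinb2 and Spink5 were tested through the Krt6a+ libraries alone and so had to differ. Klk8, a kallikrein protease, had FPKM 337 and 541 against 99.9, 71.3 and 167 (limma, adjusted p = 0.103). Cstb, the cysteine protease inhibitor cystatin B, lay lower in Krt6a+ libraries, at 1149 and 1471 against 3964, 4419 and 3173 (limma, adjusted p = 0.0685). Serpinb2, a serpin, had 2.74 and 45.8 against 0 in all 3 WAP+ libraries (limma, adjusted p = 0.125).

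Of 14 enzymes of envelope lipids 11 were tested and 0 passed, with a median log2 difference of -0.24 (limma, 1 higher and 0 lower at an unadjusted p under 0.05, against 7.66% and 9.45% of all). Abca12 was tested through the Krt6a+ libraries alone and Degs2 through the WAP+ libraries alone. Cyp4f39, a fatty acid hydroxylase, had FPKM 63.7 and 14.6 against 5.71, 5.78 and 8.48, and Abca12, the lipid transporter of lamellar granules, had 7.89 and 1.68 against 0.46, 0 and 0.89. Aloxe3, an epidermal lipoxygenase, had 0.90 and 6.37 against 9.81, 8.13 and 10.2. Of 12 suprabasal keratins 7 were tested, all with positive differences, against 49.8% of all tested genes. For 3 of the 7 both Krt6a+ libraries lay above all WAP+ libraries, against 17.4% of all, while Krt4, Krt10, Krt17 and Krt79 overlapped. Only 1, Krt80, passed (limma, adjusted p = 0.0122, against 0.258% of all called higher), at FPKM 402 and 162 against 3.70, 0.49 and 0.85. Krt16 had 223 and 331 against 62.9, 17.5 and 47.5 and Krt78 had 8.31 and 3.99 against 0.89, 0.06 and 1.63, and neither passed (limma, adjusted p = 0.0607 and 0.237).

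**Figure D5:**
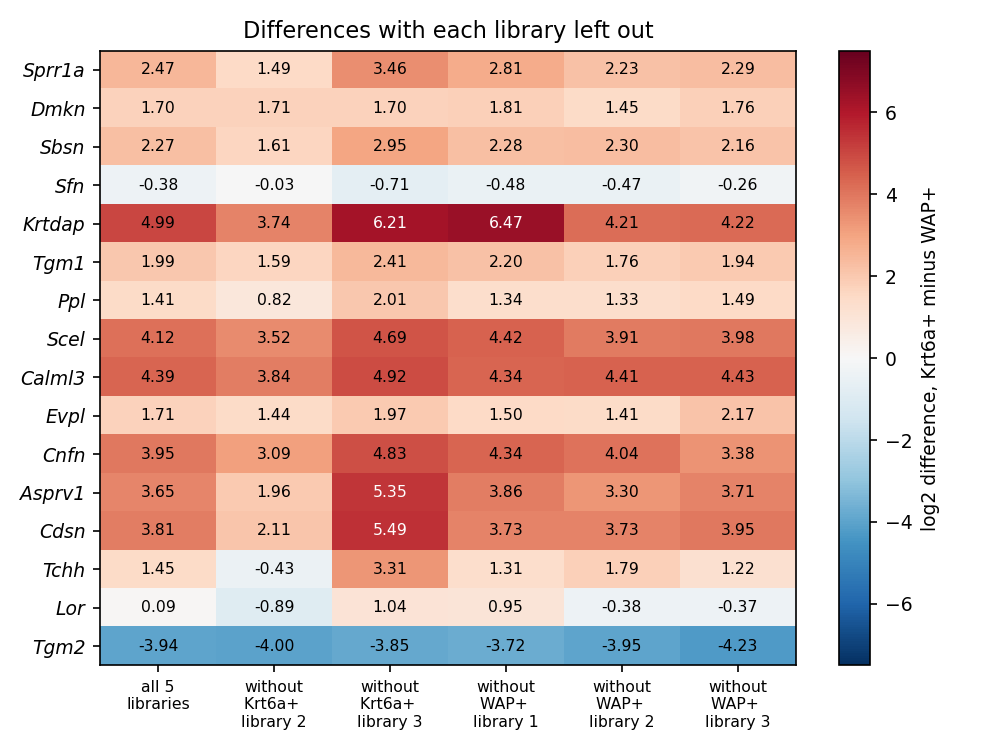
Log2 difference, Krt6a+ minus WAP+, of each tested member with all 5 libraries and with each library left out while the tested genes stay the same. Values of Asprv1, Cdsn and Tchh move most between leaving out Krt6a+ library 2 (1.96, 2.11 and -0.43) and library 3 (5.35, 5.49 and 3.31), while Dmkn stays between 1.45 and 1.81.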

How the data were processed

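RNA-seq of amplified full-length cDNA, without strand information, was compared between 2 Krt6a+ and 3 WAP+ libraries. The submitters' processing notes name TopHat, Cufflinks and mm10. Their versions and settings were not given in the sources used here. Per the file headers, each table gives FPKM with 95% bounds for 34535 RefSeq transcripts, computed by the authors, a deposited coverage signal (not used for tests), and other values such as transcript length per the file headers. Low values fell on whole fragments only in part. Of values implying 200 fragments or fewer, 24.9% to 27.0% came within 0.02 of an integer. That is more than an even spread would give, but most values were not whole, so no count model was run. Fragments behind a value were read from the interval width and cover counting error only.

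Transcripts were summed by symbol, FPKM was scaled by the median ratio over the 5334 genes that reached FPKM 1 in every library (factors 0.873 to 1.14), and log2(scaled FPKM + 1) was compared with limma 3.58.1 in R 4.3.3 (mean-variance trend, two-sided, Benjamini-Hochberg over 9682 genes, threshold 0.05). An exact permutation test could not reach 0.05 here. SDs are over libraries. On simulated data for this comparison (9682 genes), 10.8% of 4-fold, 80.2% of 16-fold and 95.6% of 64-fold changes were recovered, with 5.8% false calls. The changes were planted only in genes of higher mean level, with normally distributed noise, so these rates do not cover members near 0. Members, stage groups and gene lists were chosen with earlier results of these data known. Named by plan were all tested members, and of each list the genes called and up to 3 with the largest moderated statistic. Gata3, Maf, Spink5, Degs2, Krt73 and Krt8 were named after their values were seen. So were the further regulators Klf4, Elf3, Ehf, Klf5, Ovol1 and Trp63, and the overlapping keratins Krt4, Krt10, Krt17 and Krt79. The same holds for single markers given beside a summed marker list, among them Dcn and Cldn3. Alternatives covered the pseudocount, filter, scaling, length, transcripts, trend, replicate block and each library.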

Additional observations from a re-analysis of the deposited data

How the results depend on the processing

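With all 5 libraries, 25 genes passed upward and 42 downward, 1 and 1 of them members, and the median log2 difference of tested members was 2.13. In the same order (all genes up, all down, members up, members down), the counts were 6, 20, 0 and 0 at a pseudocount of 0.1 and 41, 31, 2 and 0 at 5. They were 2, 3, 0 and 0 with no filter, 71, 92, 4 and 1 at FPKM 5 or more, and 76, 91, 5 and 0 among genes above 0 in all libraries. They were 23, 27, 1 and 0 on FPKM as deposited, 39, 39, 3 and 1 with quantile normalization, 54, 31, 2 and 1 with the length trend removed, 32, 43, 2 and 1 with the highest transcript, and 7, 9, 0 and 0 without the mean-variance trend. Lor turned to -0.023 at a pseudocount of 5 and Sfn to 0.26 with quantile normalization. With the length trend removed, log2 differences moved both ways. Sprr1a went from 2.47 to 3.16 and Cnfn from 3.95 to 4.69, while Ppl went from 1.41 to 1.14 and Evpl from 1.71 to 1.43. Stricter filters test fewer genes; beyond that, the cause was not tested.

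Only replicate numbers 2 and 3 are shared, and deviations of same-numbered libraries correlated at 0.0495 and 0.000266. With 2 Krt6a+ libraries the deviation of each mirrors the other, so these values cannot decide whether the numbers pair the libraries. With a replicate block the counts were 15, 19, 2 and 0. The 2 members were Cnfn (adjusted p = 0.00699) and Krtdap (0.0358), while Calml3 (0.0933) and Tgm2 (0.108) no longer passed.

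Leaving out each library in turn, with the limit for testing applied again or the tested genes held fixed (the latter, and its values, chosen after seeing the data), gave 0 to 44 genes upward, 0 to 103 downward, 0 to 5 members upward and 0 to 1 downward. The 44, 103 and 5 came without Krt6a+ library 3, which left 1 Krt6a+ library, assumed to vary like the WAP+ libraries. The median was 1.60 to 3.13 for tested members, 1.59 to 2.68 for early and 1.96 to 4.83 for terminal members, lowest without Krt6a+ library 2 for terminal members. Lor ran from -0.89 (Krt6a+ library 2 left out) to 1.04 (Krt6a+ library 3 left out), with -0.38 and -0.37 when WAP+ library 2 or 3 was dropped, and Tchh was -0.43 without Krt6a+ library 2. Counting Sprr2 genes as terminal changed nothing, since none was tested. Levels near 0 rest on few fragments, and the size of a difference from them is set by the pseudocount.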
